A study of Homo sapiens with 9 samples.

Results

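The comparison described here sets 3 libraries of HUES8 cells differentiated towards definitive endoderm with an inhibitor of fatty acid oxidation, labelled ETO, against 3 libraries differentiated without an inhibitor, labelled DE. The members were chosen by label alone, as the ETO and DE columns of 1 count table, which makes 6 of the 9 libraries of the series. The other 3 libraries, labelled C75, come from cells given a fatty acid synthase inhibitor, and they enter only where ETO and C75 are compared directly. Of 19907 genes in the table, 14177 passed the filter on low counts and were tested.

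HUES8 is an established human embryonic stem cell line, labelled wild type, and all 3 groups were grown on Matrigel. In every group differentiation ran for 2 days on 100 ng/mL activin A, 50 ng/mL Wnt-3a and 0.2% albumin freed of fatty acids, after which Wnt-3a was withdrawn. The labels state neither how much inhibitor was used nor when and for how long, and give harvest only as a range of days. They also do not say whether replicate libraries are separate cultures: p-values here reflect library-to-library spread, which may be technical. ETO is taken here to be etomoxir, the inhibitor of carnitine palmitoyltransferase 1 for which that abbreviation is commonly used.

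Long-chain fatty acids enter mitochondria as carnitine esters, and carnitine palmitoyltransferase 1 on the outer membrane makes that ester and limits the rate of their oxidation. Inside, repeated rounds of beta-oxidation yield acetyl-CoA and reduced cofactors for the respiratory chain. Peroxisomes shorten very long and branched chains by a separate set of enzymes, and PPAR transcription factors raise genes of both organelles when fatty acids are abundant.

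The DE libraries held 17379711 to 20812616 counts and the ETO libraries 17743968 to 21510997, and 16109 to 16472 genes had at least 1 count. edgeR called 4916 genes higher in ETO, 34.7% of those tested, and 4999 lower, 35.3%, so that 69.9% were called in either direction at an adjusted p below 0.05. At least a 2-fold difference accompanied the call for 1356 higher genes (9.56%) and 680 lower genes (4.80%). The median log2 fold change over all genes tested was −0.0034. With so many genes called, the call of a single gene says little about a list, and the counts below are to be read against these shares. Separation of the groups was also the usual case. All 3 ETO libraries lay above all 3 DE libraries for 5090 of the 14177 genes and below them for 5071. A gene named below as lacking overlap is thus not set apart by it. All 8 markers of definitive endoderm were called lower, and their summed level was 5219 to 5346 CPM (counts scaled to library size) in the ETO libraries against 9821 to 10221 CPM in DE. Most of that sum came from CER1, with a mean of 7034 CPM in DE and 3849 CPM in ETO, 1.83-fold lower. The smallest fall of the 8 was that of EOMES, 1.16-fold, and the largest that of CXCR4, 4.89-fold. Of 8 pluripotency markers, 6 were called higher and 2 lower, with sums of 4410.4 to 4509 CPM against 3507 to 3587 CPM. The mesoderm markers MSGN1 and MEOX1, the trophoblast hormone gene CGA and the fibroblast gene DCN had 0 counts in all 6 libraries, and the liver genes ALB, TTR and SERPINA1 had at most 8 counts over the 3 libraries of a group. Other markers of these lists were detected. AFP was called higher (13 counts in DE and 104 in ETO), and HNF4A (887 and 157) and APOA1 (519 and 307) lower. Among trophoblast and amnion markers GATA2 (29 and 198) and GABRP (112 and 327) were called higher. GATA3 (1684 and 1069) and ISL1 (243 and 148) were called lower. Fewer cells of a type and less RNA per cell cannot be told apart in these bulk samples, and the part of these marker levels in the results below was not tested. Transcripts also differed by base composition and length: the median log2 fold change ran from 0.10 to −0.21 between the 20% of genes with the lowest and the 20% with the highest GC content, and from −0.14 to 0.14 between the shortest and the longest 20%.

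**Figure D1:**
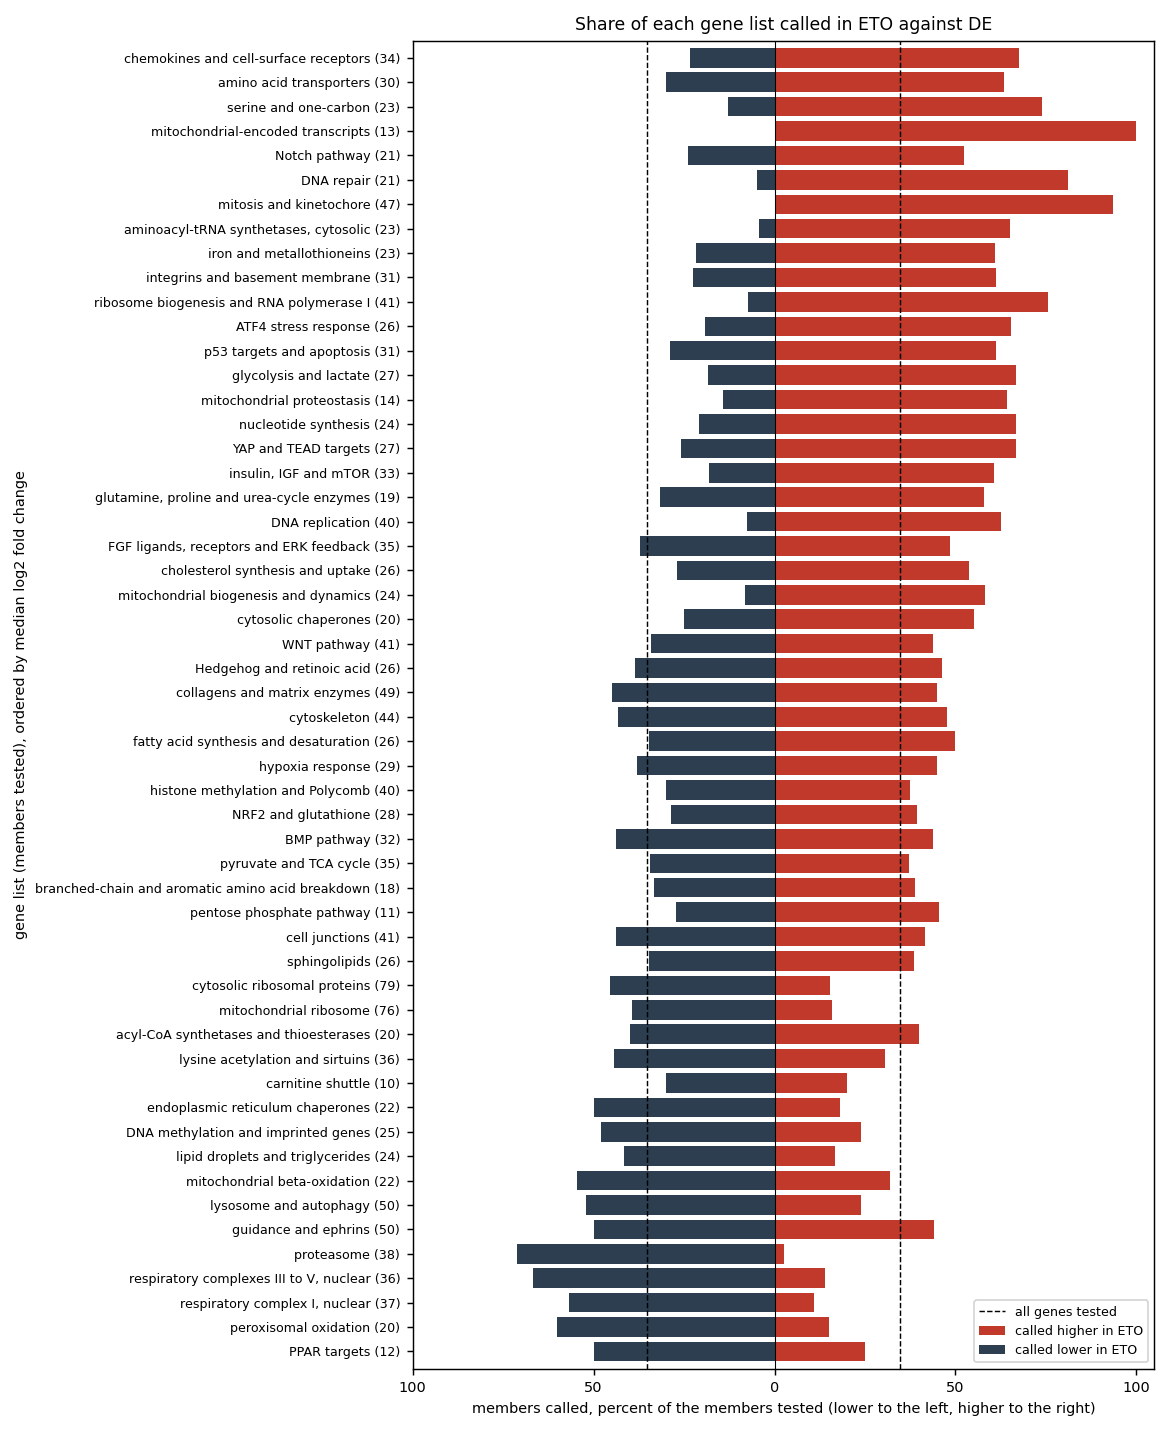
Bars give, for each of 54 gene lists, the percent of tested members called higher (to the right) and lower (to the left) in ETO against DE, with the number tested in parentheses and lists ordered by median log2 fold change. The dashed lines mark the shares over all 14177 genes, 34.7% higher and 35.3% lower. All 13 mitochondrial-encoded transcripts lie to the right, and proteasome and nuclear respiratory chain genes lie mostly to the left.

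The target of the inhibitor and its partners moved in different directions. CPT1A, which encodes the liver form of carnitine palmitoyltransferase 1, reached 90.5, 86 and 92.6 CPM with ETO against 37, 40.1 and 42.5 CPM in DE, 2.25-fold higher (log2 fold change 1.17, SE 0.052, adjusted p = 3.2e-20). The highest DE library lay well below the lowest ETO library. The muscle form CPT1B was near 1 to 2 CPM and the brain form CPT1C near 18 CPM, and neither passed the test (adjusted p = 0.31 and 0.88). CPT2, which regenerates acyl-CoA on the inner side, was at 31.2, 31.1 and 33.8 CPM in DE and at 28.1, 25.7 and 27.1 CPM in ETO, 1.19-fold lower (log2 fold change −0.25, SE 0.064, adjusted p = 1.0e-03). Transferases for short and medium chains fell further, CRAT 1.81-fold and the peroxisomal CROT 1.57-fold. The carnitine carriers SLC25A20 and SLC22A5 did not pass the test. CPT1A lies on chromosome 11 at 68754620 to 68844410 on the minus strand of GRCh38 and CPT2 on chromosome 1 at 53196429 to 53214197 on the plus strand. In all, 2 of 10 members of the carnitine list rose and 3 fell.

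Of 22 mitochondrial beta-oxidation genes tested, 12 fell (54.5%, against 35.3% of all genes) and 7 rose, with a median log2 fold change of −0.10. ACADS, the short-chain acyl-CoA dehydrogenase, was at 14.8, 16.3 and 14.9 CPM in DE and at 7.86, 9.39 and 7.6 CPM in ETO, 1.85-fold lower (log2 fold change −0.89, SE 0.097, adjusted p = 5.7e-10). The 3 ETO libraries all lay below the lowest DE library. ECHS1, the short-chain enoyl-CoA hydratase, fell 1.32-fold, and the very-long-chain dehydrogenase ACADVL fell 1.25-fold. HADHA and HADHB, the subunits of the trifunctional protein of long-chain oxidation, moved little, with log2 fold changes of −0.084 and −0.17. Among the rises were 2 dehydrogenases that act in branched-chain amino acid breakdown. ACADSB was at 34.7, 29 and 34 CPM in DE and at 63.6, 60.02 and 61.4 CPM in ETO (1.89-fold), and ACAD8 rose 1.49-fold.

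Of 20 peroxisomal oxidation genes tested, 12 fell, 3 rose and 5 did not pass, with a median log2 fold change of −0.27. EHHADH, the bifunctional enzyme that carries out hydration and dehydrogenation in the peroxisome, was at 63.6, 63.5 and 61.9 CPM in DE and at 9.4, 10.5 and 8.31 CPM in ETO, 6.68-fold lower (log2 fold change −2.74, SE 0.069, adjusted p = 1.7e-27). ACOX3, an acyl-CoA oxidase of branched chains, was at 211, 214 and 212 CPM in DE and at 54, 59.97 and 62.6 CPM in ETO, 3.62-fold lower (log2 fold change −1.86, SE 0.042, adjusted p = 8.9e-29). For both genes every ETO library lay far below the lowest DE library. The peroxisome biogenesis factors PEX5 and PEX14 fell 1.18-fold and 1.37-fold. ABCD3, a transporter of the peroxisomal membrane, moved the other way and rose 1.43-fold. EHHADH lies on chromosome 3 at 185190624 to 185281990 on the minus strand, and ACOX3 on chromosome 4 at 8366282 to 8440723 on the minus strand.

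Of 12 PPAR genes tested, 6 fell and 3 rose. The receptor gene PPARA was at 17, 15.8 and 16.3 CPM in DE and at 9.86, 13 and 11.8 CPM in ETO (1.42-fold lower, adjusted p = 1.3e-05), while PPARD was at 16.8, 17.3 and 17.6 CPM in DE and at 21.1, 23 and 20.04 CPM in ETO (1.24-fold higher). Neither pair of groups overlapped. UCP2, an inner-membrane carrier, fell from 62.6 ± 2.51 to 32.5 ± 1.99 CPM (mean ± SD, n = 3), 1.93-fold, the mitochondrial thioesterase gene ACOT2 fell 1.57-fold, and PLIN2, which coats lipid droplets, fell 1.26-fold. PDK4 and CD36 were called higher but stayed below 1 CPM in both groups. FABP1, FGF21 and PPARG were among 7 members too low to test.

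Genes of fatty acid synthesis moved in both directions, with 13 of 26 higher and 9 lower. ACACA, the acetyl-CoA carboxylase of the cytosol, rose 1.41-fold, whereas SREBF1 and MLXIPL, encoding transcription factors that raise lipogenic genes, fell 1.26-fold and 1.35-fold. SCD, the desaturase that makes oleate, was at 1338, 1280.0 and 1282 CPM in DE and at 1885, 1923 and 1923 CPM in ETO, 1.47-fold higher (log2 fold change 0.56, SE 0.028, adjusted p = 1.1e-18). The elongases moved in different directions. ELOVL2, which elongates polyunsaturated chains, was at 157, 143 and 144 CPM in DE and at 49, 51.1 and 47.5 CPM in ETO, 3.0-fold lower (log2 fold change −1.59, SE 0.043, adjusted p = 1.9e-26), while ELOVL6 and ELOVL7, which act on saturated and monounsaturated chains, rose 1.36-fold and 2.38-fold. HACD2, the dehydratase of the elongation cycle, fell 1.64-fold.

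Of 20 acyl-CoA synthetase and thioesterase genes, which attach coenzyme A to fatty acids or remove it, 8 rose and 8 fell. ACSM4, a member of the medium-chain acyl-CoA synthetase family, was at 13.4, 13.7 and 12.6 CPM in DE and at 1.27, 1.36 and 1.32 CPM in ETO, 10.001-fold lower (log2 fold change −3.32, SE 0.132, adjusted p = 1.0e-21). ACSL4, which prefers polyunsaturated chains, was at 53.7, 52.4 and 54.3 CPM in DE and at 96.4, 96.7 and 93.7 CPM in ETO, 1.79-fold higher (log2 fold change 0.84, SE 0.046, adjusted p = 9.3e-18). ETO and DE libraries did not overlap for either gene. SLC27A1, a fatty acid transport protein, fell 2.07-fold and ACSF2 fell 1.85-fold, while ACSL3 rose 1.66-fold. Of 26 cholesterol genes, 14 rose, all by less than 2-fold, and 7 fell. SC5D, of the late pathway, rose 1.6-fold, and the sterol carrier gene STARD4 rose 1.48-fold. TM7SF2, a sterol reductase, was at 90.5, 96.9 and 90.8 CPM in DE and at 38.1, 40.5 and 40.5 CPM in ETO, 2.34-fold lower (log2 fold change −1.22, SE 0.047, adjusted p = 5.0e-22), and the isomerase gene EBP fell 1.4-fold.

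Of 17 triglyceride synthesis and storage genes, 9 fell, 8 did not pass and 0 were called higher by edgeR, also at an unadjusted p below 0.05. DGAT2, which makes triglyceride from diacylglycerol, was at 8.02, 6.46 and 8.3 CPM in DE and at 3.04, 3.26 and 3.52 CPM in ETO, 2.33-fold lower (log2 fold change −1.22, SE 0.141, adjusted p = 2.2e-09). Its companion DGAT1 fell 1.42-fold, the acyltransferase gene AGPAT3 fell 1.74-fold and the phosphatidate phosphatase gene LPIN3 fell 1.76-fold. Of 7 lipolysis genes, 4 rose and PNPLA2, adipose triglyceride lipase, fell 1.19-fold. LIPA, the lysosomal acid lipase, was at 33.7, 38.5 and 34.9 CPM in DE and at 59.5, 61.7 and 59.4 CPM in ETO, 1.69-fold higher. Sphingolipid enzymes were called 10 higher and 9 lower of 26. UGT8, which makes galactosylceramide, was at 10.8, 13.7 and 11.7 CPM in DE and at 32.7, 32.8 and 32.4 CPM in ETO, 2.72-fold higher (log2 fold change 1.44, SE 0.080, adjusted p = 1.2e-17), and UGCG, which makes glucosylceramide, rose 1.68-fold. SPHK2, a sphingosine kinase, was at 97.6, 99.8 and 92.1 CPM in DE and at 38.1, 37.3 and 38.7 CPM in ETO, 2.54-fold lower. The ceramide synthase gene CERS4 and the acid sphingomyelinase gene SMPD1 fell 1.69-fold and 1.97-fold, and ASAH1, acid ceramidase, rose 1.66-fold.

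**Figure D2:**
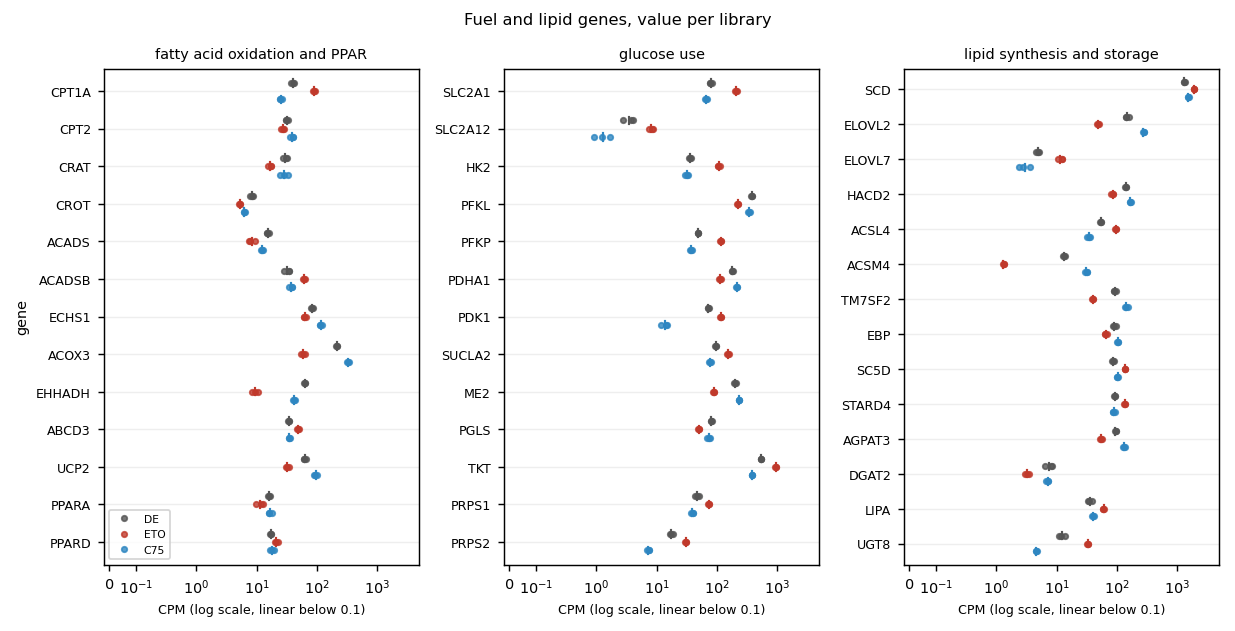
Points give the CPM of each library on a log scale that is linear below 0.1, for fatty acid oxidation and PPAR genes (left), glucose genes (middle) and lipid synthesis and storage genes (right); short vertical lines are group means, grey is DE, red ETO and blue C75. EHHADH and ACSM4 lie furthest below DE in ETO and HK2 and UGT8 well above it.

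Of 27 glycolysis and lactate genes tested, 18 rose (66.7%, against 34.7% of all genes) and 5 fell, with a median log2 fold change of 0.31. HK2, the insulin-responsive hexokinase, was at 34.4, 37 and 35.9 CPM in DE and at 106, 111 and 104 CPM in ETO, 3.0-fold higher (log2 fold change 1.59, SE 0.050, adjusted p = 1.1e-24). The glucose transporter gene SLC2A1 was at 78, 83.5 and 77.7 CPM in DE and at 215, 199.9 and 206 CPM in ETO, 2.6-fold higher (log2 fold change 1.38, SE 0.040, adjusted p = 1.5e-25). Each ETO library exceeded the highest DE library by more than 2-fold for both genes. SLC2A3, a high-affinity glucose transporter, fell 1.52-fold, from 3431 ± 43.1 to 2261 ± 4.94 CPM, and SLC2A12 rose 2.31-fold. The phosphofructokinase subunits moved in different directions. PFKP, the platelet form, was at 49.3, 48.7 and 48.4 CPM in DE and at 116, 118 and 114 CPM in ETO, 2.38-fold higher (log2 fold change 1.25, SE 0.044, adjusted p = 2.4e-23), while PFKL, the liver form, was at 377, 382 and 369 CPM in DE and at 227, 214 and 222 CPM in ETO, 1.7-fold lower (log2 fold change −0.77, SE 0.034, adjusted p = 3.1e-20), and PFKM, the muscle form, fell 1.29-fold. PFKFB2 and PFKFB3, bifunctional regulators of that enzyme, rose 1.59-fold and 1.54-fold. At the end of the pathway PKM fell 1.49-fold and LDHA rose 1.33-fold. SLC2A1 lies on chromosome 1 at 42925375 to 42959176 on the minus strand and HK2 on chromosome 2 at 74833981 to 74893359 on the plus strand.

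Pyruvate and tricarboxylic acid cycle genes were called at shares near those of all genes, 13 of 35 higher and 12 lower. At the entry of pyruvate, PDHA1, the catalytic subunit of pyruvate dehydrogenase, was at 181, 178 and 182 CPM in DE and at 115, 112 and 110.3 CPM in ETO, 1.6-fold lower (log2 fold change −0.68, SE 0.036, adjusted p = 4.1e-18). PDK1, a kinase that switches that enzyme off, was at 72.8, 71.4 and 72.1 CPM in DE and at 116, 118 and 112 CPM in ETO, 1.6-fold higher (log2 fold change 0.68, SE 0.046, adjusted p = 3.0e-15). The 6 libraries separated by group for both genes. PDK2 fell 1.43-fold. In the cycle SUCLA2, a subunit of succinyl-CoA ligase, rose 1.61-fold, and the mitochondrial malic enzyme gene ME2 was at 205, 195 and 202 CPM in DE and at 88.4, 87.8 and 89.9 CPM in ETO, 2.27-fold lower (log2 fold change −1.18, SE 0.036, adjusted p = 5.5e-25). Citrate synthase (CS), fumarase (FH) and MDH2 did not pass the test. In the pentose phosphate pathway 5 of 11 rose and 3 fell. TKT, transketolase of the non-oxidative branch, was at 529, 538 and 536 CPM in DE and at 940.2, 933 and 956 CPM in ETO, 1.76-fold higher (log2 fold change 0.82, SE 0.029, adjusted p = 3.0e-23), and the phosphoribosyl pyrophosphate synthetase genes PRPS1 and PRPS2 rose 1.55-fold and 1.74-fold. PGLS, of the oxidative branch, fell 1.62-fold.

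All 13 transcripts of the mitochondrial genome rose, with a median log2 fold change of 0.58 and a range from 0.19 (MT-ND3) to 0.83 (MT-ND6). MT-ND5, a subunit of complex I, was at 1371, 1219 and 1343 CPM in DE and at 2226, 2287 and 2233 CPM in ETO, 1.71-fold higher (log2 fold change 0.78, SE 0.033, adjusted p = 5.8e-21). MT-ND4L rose 1.73-fold. MT-ATP8 was at 179.8, 193 and 181 CPM in DE and at 282, 405 and 291 CPM in ETO, where ETO replicate 2 stood above the other two, and it rose 1.77-fold. MT-ND4L and MT-ATP8 overlap their neighbours MT-ND4 and MT-ATP6, so their reads may be shared. Summed, mitochondrial transcripts made up 3.01 ± 0.127% of the counts in DE and 4.36 ± 0.107% in ETO (mean ± SD, n = 3), a difference that passed no threshold in a two-sided exact permutation test because 3 against 3 libraries cannot go below p = 0.1, the value obtained.

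Of 37 nuclear-encoded complex I subunits, 21 fell and 4 rose (median log2 fold change −0.22), and of 36 subunits of complexes III to V, 24 fell and 5 rose (−0.21). UQCRC1, a core subunit of complex III, was at 354, 376 and 366 CPM in DE and at 201, 195 and 188 CPM in ETO, 1.87-fold lower (log2 fold change −0.90, SE 0.034, adjusted p = 2.2e-22). NDUFB7 was at 48.1, 58.5 and 47.1 CPM in DE and at 35.3, 33.7 and 33.9 CPM in ETO, 1.49-fold lower. Most falls were smaller than these. NDUFA2, NDUFA3, NDUFA12, UQCRB and ATP5F1E, the epsilon subunit of ATP synthase, fell between 1.35-fold and 1.48-fold. CYCS, cytochrome c, was higher, at 138, 144 and 163 CPM in DE and 222, 230.0 and 214 CPM in ETO (1.5-fold). NDUFA9 was called higher (log2 fold change 0.34, SE 0.142, adjusted p = 0.033), but its libraries overlapped, and the call was lost with DESeq2, after correction for gene length and GC content, and without DE replicate 1, DE replicate 3 or ETO replicate 1. The number of complex III to V subunits called higher dropped to 2 without DE replicate 1 and to 3 without ETO replicate 1, and the number of complex I subunits called higher dropped to 2 after correction for gene length and GC content. With that correction 18 of the 37 complex I subunits were lower (median −0.15) and 17 of the 36 subunits of complexes III to V were lower and 4 higher (median −0.11).

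Of 24 genes of mitochondrial biogenesis and dynamics, which cover nuclear regulators, upkeep and expression of mitochondrial DNA, and fusion and fission, 14 rose and 2 fell. The number called lower was 1 under both other scalings, with DESeq2, with a stricter low-count filter and without DE replicate 2, DE replicate 3, ETO replicate 2 or ETO replicate 3, and 4 after correction for gene length and GC content. PPARGC1B, a coactivator of mitochondrial biogenesis, was at 1.9, 2.29 and 3.07 CPM in DE and at 8.68, 9.995 and 7.65 CPM in ETO, 3.65-fold higher (log2 fold change 1.87, SE 0.175, adjusted p = 1.6e-11). Its better known relative PPARGC1A fell, from 2.65 ± 0.776 to 1.19 ± 0.251 CPM. TFAM, which packages mitochondrial DNA, was at 63.8, 63.5 and 68.1 CPM in DE and at 92.2, 98.2 and 94.3 CPM in ETO, 1.46-fold higher (log2 fold change 0.54, SE 0.048, adjusted p = 4.8e-12). The helicase gene TWNK rose 1.62-fold, and LRPPRC, which stabilises mitochondrial messenger RNA, rose 1.51-fold. NRF1 and GABPA, nuclear factors for respiratory genes, did not pass (log2 fold change 0.076, adjusted p = 0.38, and log2 fold change −0.029, adjusted p = 0.61). OPA1, of inner-membrane fusion, rose 1.28-fold, and FIS1, of fission, fell 1.22-fold, a call lost after correction for gene length and GC content. Chaperones and proteases of the matrix were called 9 higher and 2 lower of 14. HSPD1 was at 501, 546 and 558 CPM in DE and at 938, 972 and 938 CPM in ETO, 1.78-fold higher (log2 fold change 0.83, SE 0.036, adjusted p = 1.3e-20). Its co-chaperonin gene HSPE1, whose span overlaps that of HSPD1, rose 1.46-fold, the matrix HSP70 gene HSPA9 1.39-fold and the protease subunit gene AFG3L2 1.35-fold. CLPP fell 1.27-fold, and this call too was lost after the correction.

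Of 76 mitochondrial ribosomal protein genes, 12 rose, 30 fell and 34 did not pass. The split became 21 higher and 20 lower after correction for gene length and GC content, so the balance of the list changed with that correction. MRPL22 was at 73.1, 74.7 and 70.1 CPM in DE and at 35, 38.1 and 37.1 CPM in ETO, 1.98-fold lower (log2 fold change −0.99, SE 0.049, adjusted p = 6.5e-19). MRPS6 fell 1.95-fold, MRPS25 1.68-fold and MRPL28 1.65-fold, and MRPS35 rose 1.35-fold.

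**Figure D3:**
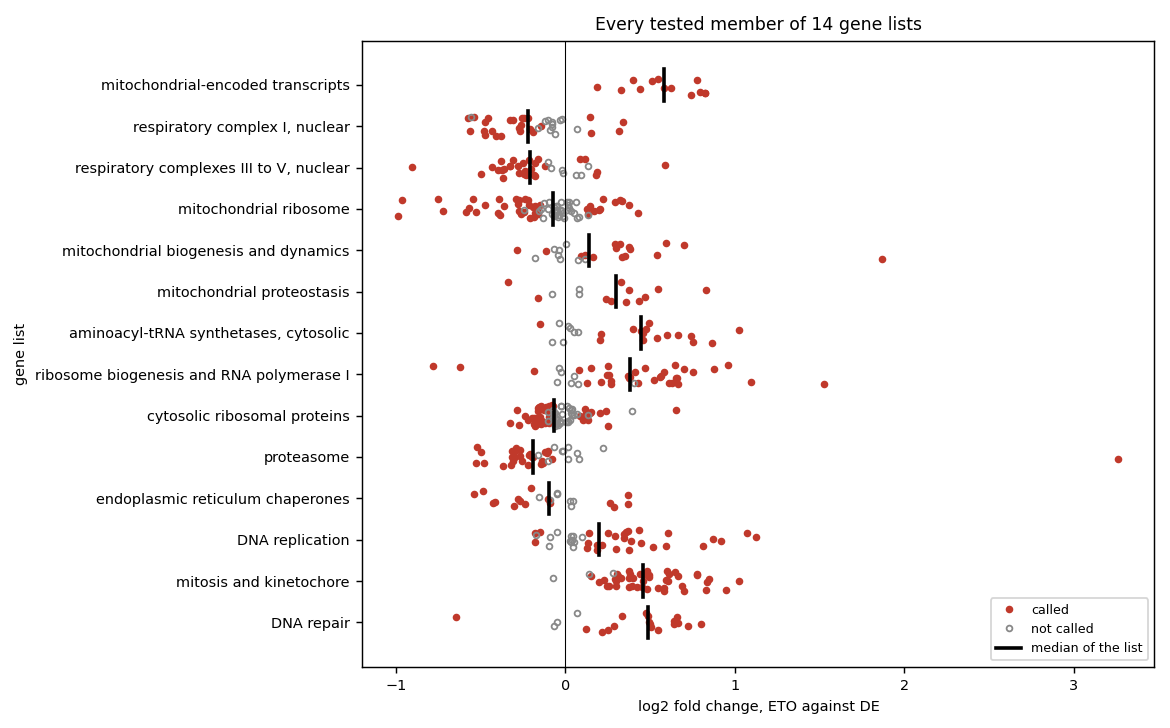
Each point is a tested gene placed by its log2 fold change in ETO against DE, filled where called and open where not, and the black bar is the median of the list; the vertical spread within a row carries no meaning. Mitochondrial-encoded transcripts lie to the right of 0, with a median of 0.58, and the nuclear complex I genes mostly to the left, with a median of −0.22. The proteasome point far to the right is PSMB8.

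ATF4 is the transcription factor that cells use to answer a shortage of amino acids, mitochondrial stress or unfolded protein, and its known targets make serine, asparagine and glycine-derived folates, import amino acids and charge transfer RNA. Of 23 serine and one-carbon genes, 17 rose, 3 fell and 3 did not pass, with a median log2 fold change of 0.58. PSAT1, the aminotransferase of serine synthesis, was at 109, 119 and 118 CPM in DE and at 361, 364 and 368 CPM in ETO, 3.16-fold higher (log2 fold change 1.66, SE 0.037, adjusted p = 3.6e-29). PHGDH, which starts the pathway from a glycolytic intermediate, was at 122, 134 and 142 CPM in DE and at 354, 338 and 354 CPM in ETO, 2.63-fold higher (log2 fold change 1.4, SE 0.041, adjusted p = 1.4e-25). The phosphatase PSPH, which ends it, rose less, 1.27-fold. In mitochondria SHMT2, which moves the serine carbon to folate, was at 128, 137 and 129 CPM in DE and at 267, 259 and 267 CPM in ETO (2.01-fold higher), and MTHFD2, the next enzyme, was at 66, 74.9 and 82.5 CPM in DE and at 189, 190.5 and 187 CPM in ETO (2.54-fold higher, adjusted p = 7.1e-23). ALDH1L2 rose 4.75-fold from a low level of 1.53 ± 0.641 CPM, and MTHFD1L and the cytosolic enzymes SHMT1 and MTHFD1 rose 1.67-fold, 1.67-fold and 1.58-fold. In the glycine cleavage system GLDC rose 1.86-fold and GCSH, the lipoate carrier, fell 1.52-fold. PHGDH lies on chromosome 1 at 119648411 to 119744226 on the plus strand and PSAT1 on chromosome 9 at 78297143 to 78330093 on the plus strand.

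Of 11 ATF4 targets, 8 rose, 5 of them at least 2-fold, and of 15 regulators 9 rose, with 0 at 2-fold or more, and 3 fell. ASNS, asparagine synthetase, was at 56.6, 62.3 and 67.4 CPM in DE and at 222, 230.4 and 217 CPM in ETO, 3.6-fold higher (log2 fold change 1.85, SE 0.047, adjusted p = 2.7e-27). STC2, a secreted glycoprotein of this response, was at 13.3, 16.3 and 15.7 CPM in DE and at 65.3, 65.4 and 69 CPM in ETO, 4.41-fold higher (log2 fold change 2.14, SE 0.072, adjusted p = 8.9e-24). GDF15, a secreted stress hormone, was at 2.52, 3.03 and 2.54 CPM in DE and at 12.1, 11.8 and 13.7 CPM in ETO, 4.65-fold higher (log2 fold change 2.22, SE 0.149, adjusted p = 3.2e-15). For none of these 3 did any ETO library overlap DE. The cystine importer gene SLC7A11 rose 2.67-fold and CTH, of cysteine synthesis, rose 2.46-fold. ATF4 itself rose only 1.09-fold at the transcript level, CHAC1 and TRIB3 rose 1.76-fold and 1.41-fold, and DDIT3, which encodes CHOP, did not pass (log2 fold change −0.18, adjusted p = 0.25). PPP1R15A, which reverses the block of translation in this response, was at 121, 111 and 119 CPM in DE and at 62.5, 61.5 and 59.6 CPM in ETO, 1.91-fold lower (log2 fold change −0.93, SE 0.042, adjusted p = 3.1e-20), and ATF3 fell 1.7-fold. ASNS lies on chromosome 7 at 97852118 to 97872542 on the minus strand and STC2 on chromosome 5 at 173314713 to 173329503 on the minus strand.

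Of 30 amino acid transporter genes, 19 rose, 9 of them at least 2-fold, and 9 fell. SLC6A15, an importer of branched-chain and other neutral amino acids, was at 4.27, 4.51 and 4.6 CPM in DE and at 24.1, 22.3 and 22.5 CPM in ETO, 5.15-fold higher (log2 fold change 2.36, SE 0.107, adjusted p = 4.5e-20). SLC7A1, the carrier of arginine and lysine, was at 53.8, 52.1 and 53.1 CPM in DE and at 160.3, 158 and 163 CPM in ETO, 3.02-fold higher (log2 fold change 1.6, SE 0.041, adjusted p = 2.7e-27). SLC1A3, a glutamate and aspartate carrier, was at 10.2, 8.46 and 9.63 CPM in DE and at 31.6, 33.1 and 28.7 CPM in ETO, 3.29-fold higher. In each of these the lowest ETO library was more than 2-fold above the highest DE library. The neutral amino acid carriers SLC43A1, SLC7A8, SLC1A5 and SLC38A1 rose 3.87-fold, 2.62-fold, 1.9-fold and 1.9-fold. SLC38A5 fell 1.74-fold and SLC25A13, the mitochondrial aspartate-glutamate carrier, fell 1.42-fold. The cytosolic aminoacyl-tRNA synthetases and their cofactors were called 15 higher and 1 lower of 23. GARS, for glycine, was at 142, 147 and 149 CPM in DE and at 296, 298 and 297 CPM in ETO, 2.03-fold higher (log2 fold change 1.02, SE 0.034, adjusted p = 4.2e-24). EPRS, for glutamate and proline, was at 129, 127 and 127 CPM in DE and at 234, 229 and 236 CPM in ETO, 1.82-fold higher. LARS, IARS and TARS rose 1.68-fold, 1.67-fold and 1.51-fold. HARS, for histidine, was the one called lower, at 53.4, 54.4 and 56.2 CPM in DE and 49.3, 48.9 and 49.6 CPM in ETO (log2 fold change −0.15, SE 0.048, adjusted p = 0.0065).

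Promoters of these genes were searched for TGATGNAAN, a pattern of C/EBP-ATF elements, on both strands of the window from 250 bases before to 50 bases after each gene start (RefSeq on GRCh38.p14; 11481 of the 14177 tested genes matched an entry). It occurred in 1.7% of the promoters of tested genes and in 3.7% of all 27305 promoters. It occurred in 6 of the 18 tRNA synthetase promoters matched (33.3%), and all 6 genes rose, beside 15 of 23 higher in the whole list. Of 25 amino acid transporter promoters 4 had it (16.0%), those of SLC7A1, SLC3A2, SLC1A3 and SLC38A1. All of these were called higher, SLC3A2 by a log2 fold change of only 0.083, beside 19 of 30 higher in the whole list. In the ATF4 list 3 of 22 had it (13.6%), where ASNS and CHAC1 rose and ATF3 fell, beside 17 of 26 higher in the whole list. The sequences below carry these matches in capitals, on the strand of the gene. They lie at chr7:97872443-97872501 (minus strand) for ASNS, chr13:29595659-29595706 (minus strand) for SLC7A1, chr9:92293678-92293736 (minus strand) for IARS, chr12:57488038-57488096 (plus strand) for MARS, chr5:33440941-33440994 (plus strand) for TARS, chr18:57621807-57621847 (minus strand) for NARS, chr11:3057394-3057451 (minus strand) for CARS, chr16:70289661-70289719 (minus strand) for AARS and chr1:212565191-212565249 (plus strand) for ATF3, the last shown because its transcript fell. A match is a string of letters and not evidence of binding.
ASNS: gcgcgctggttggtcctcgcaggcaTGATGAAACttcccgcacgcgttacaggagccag
SLC7A1: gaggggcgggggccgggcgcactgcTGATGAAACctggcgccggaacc
IARS: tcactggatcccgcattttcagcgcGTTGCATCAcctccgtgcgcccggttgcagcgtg
MARS: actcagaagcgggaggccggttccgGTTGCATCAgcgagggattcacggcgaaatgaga
TARS: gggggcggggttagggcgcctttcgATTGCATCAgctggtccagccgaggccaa
NARS: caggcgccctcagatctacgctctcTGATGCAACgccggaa
CARS: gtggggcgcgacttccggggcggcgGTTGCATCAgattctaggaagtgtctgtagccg
AARS: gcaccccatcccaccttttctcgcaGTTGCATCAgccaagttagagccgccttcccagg
ATF3: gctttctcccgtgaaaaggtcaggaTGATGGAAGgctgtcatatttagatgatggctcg

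Among these genes NARS rose 1.45-fold, from 255 ± 7.66 to 370.1 ± 8.56 CPM, MARS 1.37-fold, AARS 1.39-fold and CARS 1.32-fold. The synthetase genes without a match were not uniform: GARS and EPRS rose more than any that had one, and KARS did not pass (log2 fold change 0.027, adjusted p = 0.48). IARS, MARS, CARS and AARS share the letters GTTGCATCA, which is a match read on the opposite strand, and TARS differs from them in its first letter. Rises without the pattern in the window included PHGDH, PSAT1 and MTHFD2, and of 16 serine and one-carbon promoters 1 had it, that of MTHFD1L.

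Other amino acid enzymes were mixed. In the glutamine, proline and urea-cycle list 11 of 19 rose and 6 fell. ASS1, argininosuccinate synthase, was at 34.5, 36.4 and 34.4 CPM in DE and at 63, 63.2 and 69.4 CPM in ETO, 1.86-fold higher, and the glutamate dehydrogenase gene GLUD1 rose 1.51-fold. GLUL, which makes glutamine, fell 1.33-fold. Of the proline synthesis reductases, PYCR3 fell 1.58-fold and PYCR1 did not pass, and ALDH4A1, which degrades proline, rose 1.67-fold. For branched-chain amino acids the cytosolic transaminase gene BCAT1 was at 336, 334 and 343 CPM in DE and at 571, 595 and 595 CPM in ETO, 1.74-fold higher, while the mitochondrial BCAT2 was at 32.3, 34.9 and 31 CPM in DE and at 13.9, 13.6 and 16.1 CPM in ETO, 2.25-fold lower. These paralogues thus moved in opposite directions without overlap of the groups. AASS, of lysine breakdown, rose 2.07-fold and MCCC1, of leucine breakdown, fell 1.6-fold.

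**Figure D4:**
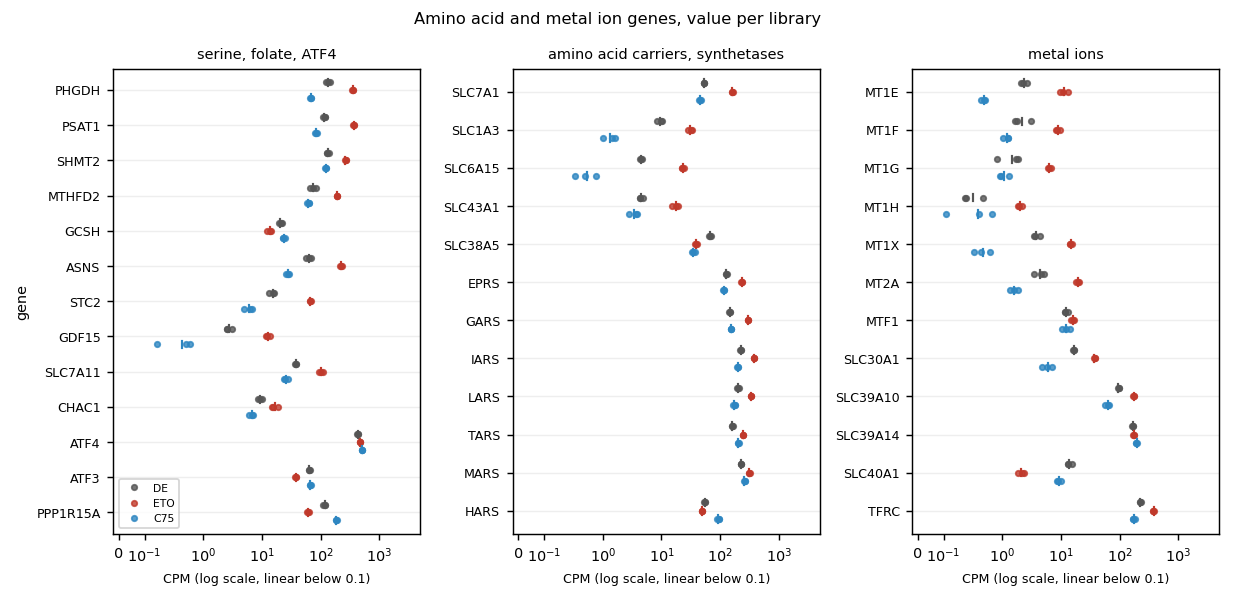
Points give the CPM of each library on a log scale that is linear below 0.1, for serine, folate and ATF4 genes (left), amino acid carriers and synthetases (middle) and metal ion genes (right); short vertical lines are group means, grey is DE, red ETO and blue C75. ASNS, SLC6A15 and the metallothionein genes stand apart in ETO, and PPP1R15A and SLC40A1 lie on the other side. HARS is only slightly lower in ETO than in DE.

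Of 24 nucleotide synthesis genes, 16 rose and 5 fell, and the purine branch gave 10 of the rises. ADSS, which commits the pathway to AMP, was at 63.4, 69.3 and 69.5 CPM in DE and at 132, 128 and 125 CPM in ETO, 1.91-fold higher (log2 fold change 0.93, SE 0.043, adjusted p = 9.7e-20). Its muscle relative ADSSL1 fell 1.52-fold. GART and IMPDH1 rose 1.58-fold and 1.58-fold, and HPRT1, of purine salvage, rose 2.4-fold. CAD, which starts pyrimidine synthesis, rose 1.47-fold. The list of ribosome biogenesis and RNA polymerase I factors, which also holds MYC and its partners, had 31 of 41 higher and 3 lower, with a median log2 fold change of 0.38. MYC, the transcription factor known to raise these genes, was at 38.9, 43 and 39.1 CPM in DE and at 123, 111 and 114 CPM in ETO, 2.88-fold higher (log2 fold change 1.52, SE 0.052, adjusted p = 1.1e-23). MXD4, which competes with MYC for its partner MAX, was at 143, 143 and 133 CPM in DE and at 84.8, 78.6 and 79.6 CPM in ETO, 1.72-fold lower (log2 fold change −0.78, SE 0.043, adjusted p = 1.2e-17), and MAX did not pass. MYC and MXD4 thus differed in direction, and the groups did not overlap for either gene. DDX21, a nucleolar helicase, was at 211, 211 and 224 CPM in DE and at 454, 465 and 458 CPM in ETO, 2.13-fold higher (log2 fold change 1.09, SE 0.034, adjusted p = 6.1e-25). NOC3L and the polymerase subunit gene POLR1B rose 1.94-fold and 1.83-fold, and RRP9 fell 1.54-fold.

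The E-box CACGTG, the core sequence that MYC and MAX bind, was found in 9.8% of the promoters of tested genes and in 7.4% of all promoters in the same window. It was present in 11 of 33 promoters of the ribosome biogenesis list (33.3%). Of these 11 genes 8 rose, 2 fell (RRP9 and MXD4) and 1 did not pass, beside 31 of 41 higher in the whole list. Some other lists had similar shares. They included mitochondrial proteostasis, with 4 of 12 promoters (33.3%) and 9 of 14 genes higher. Lysosome and autophagy had 10 of 38 promoters (26.3%), with 12 of 50 genes higher and 26 lower. The E-box was also present in 5 of 22 nucleotide synthesis promoters (22.7%). Of these genes PPAT and NME1 rose, and ATIC, DHODH and DCTPP1 did not pass. CACGTG reads the same on both strands, and in CACGTGC it overlaps ACGTGC, the hypoxia pattern given further on. Those of NOC3L, WDR43 and UTP20, which rose 1.94-fold, 1.62-fold and 1.47-fold, are shown with the E-box in capitals; they lie at chr10:94362910-94362945 (minus strand), chr2:28894645-28894696 (plus strand) and chr12:101280070-101280128 (plus strand).
NOC3L: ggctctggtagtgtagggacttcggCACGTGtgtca
WDR43: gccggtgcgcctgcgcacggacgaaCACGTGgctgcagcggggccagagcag
UTP20: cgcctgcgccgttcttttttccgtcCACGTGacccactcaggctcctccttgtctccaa

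Structural proteins of the cytosolic ribosome were called lower in larger number than higher. Of 79 genes, 12 rose, 36 fell and 31 did not pass, all with differences under 2-fold. RPL26 was at 12.8, 13.9 and 14 CPM in DE and at 22.6, 20.8 and 20.4 CPM in ETO, 1.57-fold higher. These genes have many processed pseudogenes, so reads may be shared between copies. The count of lower genes was 19 without DE replicate 2, and the split was 20 higher and 23 lower after correction for gene length and GC content, which also turned RPL35 from a log2 fold change of −0.29 to 0.029, no longer called, and ended the call of RPS15 (−0.27).

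Of 47 mitosis and kinetochore genes, 44 rose, 3 did not pass and 0 were called lower in the edgeR fit used throughout, with a median log2 fold change of 0.46. DESeq2 also called 0 lower. KIF14, a mitotic kinesin, was at 37.2, 38.4 and 38.1 CPM in DE and at 74.1, 83.3 and 73.6 CPM in ETO, 2.03-fold higher (log2 fold change 1.02, SE 0.053, adjusted p = 1.9e-18). CENPF was at 189, 180.3 and 185 CPM in DE and at 345, 371 and 352 CPM in ETO, 1.93-fold higher (log2 fold change 0.95, SE 0.035, adjusted p = 1.2e-22). The checkpoint kinase gene BUB1B and the kinetochore motor gene CENPE rose 1.8-fold and 1.79-fold, and MYBL2, a transcription factor of these genes, was the 1 member lower at an unadjusted p below 0.05 (log2 fold change −0.074, adjusted p = 0.054). In edgeR fits with only the DE and ETO libraries, with the replicate block, with no filter on low counts or without DE replicate 3, 1 member was called lower. Among 40 replication genes 25 rose and 3 fell. CCND1, cyclin D1, was at 149, 158 and 155 CPM in DE and at 320.2, 325 and 324 CPM in ETO, 2.1-fold higher (log2 fold change 1.07, SE 0.034, adjusted p = 1.6e-24), and CCND3 rose 1.82-fold. The repressive E2F genes E2F7 and E2F8 rose 2.18-fold and 1.89-fold, while E2F1 did not pass, CCNE1 fell 1.11-fold and ORC6 fell 1.13-fold. Of 21 repair genes 17 rose, XRCC2, ATM, RIF1 and CHEK2 among them at 1.74-fold, 1.65-fold, 1.58-fold and 1.58-fold. MSH6, of mismatch repair, was the exception, at 528, 533 and 527 CPM in DE and 340.0, 339 and 337 CPM in ETO, 1.56-fold lower (log2 fold change −0.64, SE 0.030, adjusted p = 1.4e-19).

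The p53 targets and BCL2 family had 19 of 31 higher and 9 lower. CDKN1A, the p21 inhibitor of cyclin-dependent kinases, was at 11.9, 10.1 and 9.63 CPM in DE and at 29.5, 31.2 and 29.4 CPM in ETO, 2.84-fold higher (log2 fold change 1.51, SE 0.086, adjusted p = 3.4e-17). PMAIP1, which encodes the pro-apoptotic protein NOXA, was at 29.7, 34.9 and 39.7 CPM in DE and at 95.9, 94.7 and 89.4 CPM in ETO, 2.7-fold higher (log2 fold change 1.43, SE 0.066, adjusted p = 7.6e-20). BTG2, an antiproliferative p53 target, was at 110.2, 114 and 111 CPM in DE and at 44.5, 43.3 and 47.7 CPM in ETO, 2.47-fold lower (log2 fold change −1.31, SE 0.044, adjusted p = 8.8e-24). Known targets of the same factor were thus found on both sides, with no overlap between groups. PHLDA3 rose 2.04-fold and RRM2B 2.04-fold, while BBC3, which encodes PUMA, and GADD45A fell 1.58-fold and 1.53-fold. Of apoptosis effectors BAK1 fell 1.69-fold and BAX did not pass.

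Of 38 proteasome genes, 27 fell, 1 rose and 10 did not pass, with a median log2 fold change of −0.19. PSMB6, a catalytic subunit, was at 145, 155 and 151 CPM in DE and at 105, 99.9 and 108 CPM in ETO, 1.44-fold lower (log2 fold change −0.53, SE 0.039, adjusted p = 2.8e-14). PSMD8, of the regulatory particle, fell 1.39-fold, PSME1 1.43-fold and PSMA6 1.41-fold. The one called higher was PSMB8, an immunoproteasome subunit, from 0.263 ± 0.0242 to 2.56 ± 0.0897 CPM. In the endoplasmic reticulum 11 of 22 chaperone genes fell and 4 rose. CALR, calreticulin, was at 1699, 1734 and 1761 CPM in DE and at 1305, 1265 and 1286 CPM in ETO, 1.35-fold lower. CRELD2, MANF and SEC61B fell 1.45-fold, 1.4-fold and 1.33-fold, the major chaperone HSPA5 fell 1.15-fold, and DNAJC3, an inhibitor of the kinase PERK, rose 1.29-fold. Cytosolic chaperones were called 11 higher and 5 lower of 20. The inducible heat shock genes HSPA1A, HSPA1B and DNAJB1 fell 1.76-fold, 1.37-fold and 1.31-fold, HSPA1A and HSPA1B being near-identical copies, and HSP90AA1 rose 1.37-fold, from 1652 ± 42.4 to 2269.6 ± 29.2 CPM.

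Of 50 lysosome and autophagy genes, 26 fell and 12 rose. CTSZ, a cathepsin, was at 72.2, 71.8 and 68.6 CPM in DE and at 36.9, 36.6 and 34.9 CPM in ETO, 1.96-fold lower (log2 fold change −0.97, SE 0.048, adjusted p = 6.9e-19), and CTSH fell 2.12-fold. CTSC, which activates granule proteases, was at 106, 121 and 115 CPM in DE and at 203, 196 and 200.2 CPM in ETO, 1.76-fold higher (log2 fold change 0.81, SE 0.040, adjusted p = 4.6e-19). RRAGD, a Rag GTPase that reports amino acids to mTOR, was at 3.8, 4.06 and 4.5 CPM in DE and at 11.4, 13.1 and 11.8 CPM in ETO, 2.95-fold higher, while its paralogue RRAGC fell 1.46-fold. The Rag genes therefore differed in direction.

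Antioxidant genes were called 11 higher and 8 lower of 28. NFE2L2, which encodes NRF2, was at 102, 98.7 and 106 CPM in DE and at 67.2, 70.2 and 69.6 CPM in ETO, 1.48-fold lower (log2 fold change −0.57, SE 0.041, adjusted p = 2.2e-14). GPX4, which reduces lipid peroxides, fell 1.52-fold, and the exporter gene ABCC4 was at 66, 61.9 and 62.3 CPM in DE and at 21.2, 21.2 and 23.6 CPM in ETO, 2.89-fold lower. The thioredoxin reductase gene TXNRD1 and the glutathione reductase gene GSR rose 1.46-fold and 1.41-fold, and HMOX1 did not pass (log2 fold change −0.011, adjusted p = 0.93).

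Metallothioneins, small cysteine-rich proteins that bind zinc and copper, rose together. All 6 tested genes of the list were called higher. MT2A was at 3.47, 4.51 and 5.13 CPM in DE and at 18.1, 20.3 and 19.8 CPM in ETO, 4.46-fold higher (log2 fold change 2.16, SE 0.118, adjusted p = 1.1e-17). MT1X was at 3.47, 4.4 and 3.6 CPM in DE and at 15.4, 14.1 and 14.4 CPM in ETO, 3.84-fold higher (log2 fold change 1.94, SE 0.125, adjusted p = 9.0e-16). MT1E was at 2.66, 2.11 and 2.27 CPM in DE and at 13.3, 9.79 and 10.8 CPM in ETO, 4.78-fold higher. No library of one group reached the other in any of these 3. MT1F, MT1G and MT1H rose 4.07-fold, 4.45-fold and 6.17-fold. The genes are near-identical and neighbours on chromosome 16, so reads may be shared between them. MTF1, the zinc-sensing factor that drives them, rose 1.29-fold, the zinc exporter gene SLC30A1 was at 16.3, 16.9 and 16 CPM in DE and at 37.7, 38 and 36 CPM in ETO (2.27-fold higher), and the importer gene SLC39A10 rose 1.83-fold. The importer SLC39A14 did not pass (log2 fold change 0.049, adjusted p = 0.22).

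Metal response elements hold the core TGCACNC or TGCGCNC, and these letters were looked for after the metallothionein values had been seen. At least 1 match on either strand was found in 39.2% of the promoters of tested genes and 29.3% of all promoters, and 3 or more in 3.3% and 2.3%. Of the 6 promoters matched in the metallothionein and zinc set, 3 had 3 or more, those of MT1H, MT1X and MT2A. The 200 bases that start 190 bases before the gene start are shown for MT2A at chr16:56608394-56608593 (plus strand) and MT1X at chr16:56682280-56682479 (plus strand), with matches to either strand in capitals.
MT2A: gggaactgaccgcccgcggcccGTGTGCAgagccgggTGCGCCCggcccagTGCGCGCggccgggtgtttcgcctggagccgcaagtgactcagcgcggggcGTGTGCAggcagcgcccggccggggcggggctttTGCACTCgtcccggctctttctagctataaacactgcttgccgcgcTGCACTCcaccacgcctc
MT1X: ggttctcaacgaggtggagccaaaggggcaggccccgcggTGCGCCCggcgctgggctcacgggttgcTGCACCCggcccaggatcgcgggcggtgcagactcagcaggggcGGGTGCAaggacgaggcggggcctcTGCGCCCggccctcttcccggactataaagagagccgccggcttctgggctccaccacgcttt

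Iron genes were split. SLC40A1, ferroportin, the iron exporter, was at 12.9, 15.4 and 13.2 CPM in DE and at 2.18, 2.31 and 1.82 CPM in ETO, 6.52-fold lower (log2 fold change −2.7, SE 0.136, adjusted p = 9.2e-19). TFRC, the transferrin receptor that imports iron, was at 219, 221 and 231 CPM in DE and at 373, 389 and 373 CPM in ETO, 1.69-fold higher (log2 fold change 0.76, SE 0.034, adjusted p = 2.8e-20). Importer and exporter thus differed in direction, and the groups did not overlap for either gene. The ferritin chains moved apart, FTL 1.24-fold higher and FTH1 1.17-fold lower. Hypoxia-response genes had 13 higher and 11 lower of 29. STC1 was at 308, 293 and 296 CPM in DE and at 123, 129 and 121 CPM in ETO, 2.41-fold lower, VEGFA fell 1.82-fold, and EPAS1, which encodes HIF-2 alpha, rose 3.11-fold while HIF1A fell 1.15-fold. SLC2A1 and PDK1, described above, were among the rises. ACGTGC, the core of a hypoxia response element, was in 8 of 22 promoters of this list (36.4%), in 10 of 33 of the ribosome biogenesis list (30.3%), in 8.6% of those of tested genes and in 6.9% of all promoters.

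Of 35 genes of FGF signalling, 17 rose, 12 of them at least 2-fold, and 13 fell. FGF4, a ligand of early embryos, was at 25.7, 29 and 26.1 CPM in DE and at 153, 139 and 148 CPM in ETO, 5.45-fold higher (log2 fold change 2.45, SE 0.053, adjusted p = 2.2e-29). FGF2 was at 14.6, 15.5 and 17.1 CPM in DE and at 90.1, 92.5 and 89.2 CPM in ETO, 5.76-fold higher, and its span overlaps that of NUDT6 on the opposite strand. FGF19 rose 4.14-fold, and FGF8, made in the primitive streak, was at 50.6, 56.9 and 51.1 CPM in DE and at 31.8, 31.9 and 34.5 CPM in ETO, 1.61-fold lower. Ligands therefore lay on both sides. Feedback genes of the ERK kinases did too. SPRY4 was at 67.4, 62.7 and 64.9 CPM in DE and at 221, 214 and 220.2 CPM in ETO, 3.36-fold higher (log2 fold change 1.75, SE 0.038, adjusted p = 3.3e-29), and DUSP4, a phosphatase of ERK, was at 394, 394 and 374 CPM in DE and at 128, 127 and 129 CPM in ETO, 3.03-fold lower (log2 fold change −1.6, SE 0.034, adjusted p = 9.4e-30). DUSP6, SPRY1 and ETV5 rose 2.54-fold, 2.89-fold and 2.06-fold, and DUSP5, DUSP14 and EGR1 fell 1.52-fold, 2.2-fold and 2.92-fold.

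BMP genes were called 14 higher and 14 lower of 32. The antagonist gene GREM1 was at 3.28, 4.86 and 5.13 CPM in DE and at 27.1, 25.9 and 28.3 CPM in ETO, 6.18-fold higher (log2 fold change 2.63, SE 0.113, adjusted p = 9.2e-21), and the antagonist NBL1 was at 131, 142 and 127 CPM in DE and at 60.8, 62.2 and 62.3 CPM in ETO, 2.16-fold lower (log2 fold change −1.11, SE 0.043, adjusted p = 4.9e-22). Of the target genes, ID1, ID2, ID3 and ID4 rose 1.38-fold, 1.99-fold, 1.64-fold and 2.27-fold, and SMAD6 and SMAD7, feedback inhibitors, fell 1.45-fold and 1.23-fold. The ligand gene BMP2 fell 1.8-fold. Of 41 WNT genes 18 rose and 14 fell. SFRP1, a secreted WNT antagonist, was at 975, 937 and 951 CPM in DE and at 297, 288 and 292 CPM in ETO, 3.27-fold lower (log2 fold change −1.71, SE 0.030, adjusted p = 9.0e-32), while SFRP2 was at 33.9, 40.7 and 37.7 CPM in DE and at 149, 141 and 141 CPM in ETO, 3.86-fold higher (log2 fold change 1.95, SE 0.051, adjusted p = 5.2e-27). The related antagonists differed in direction, and the groups did not overlap for either. The receptor FZD5 fell 2.7-fold and FZD8 fell 2.59-fold, the ligand WNT5A rose 3.94-fold, and the target AXIN2 fell 1.69-fold while SP5 and NKD1 rose 1.62-fold and 1.84-fold.

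In the Notch pathway 11 of 21 rose and 5 fell. JAG1, a ligand, was at 9.73, 10.1 and 12.5 CPM in DE and at 32.4, 34.4 and 33 CPM in ETO, 3.09-fold higher (log2 fold change 1.63, SE 0.092, adjusted p = 2.7e-17). HES1, a target, was at 18.3, 20.6 and 20.5 CPM in DE and at 67.4, 60.8 and 63 CPM in ETO, 3.22-fold higher (log2 fold change 1.69, SE 0.062, adjusted p = 1.2e-22). HES4 was at 35.5, 35.3 and 33.7 CPM in DE and at 7.45, 8.09 and 9.91 CPM in ETO, 4.14-fold lower (log2 fold change −2.05, SE 0.087, adjusted p = 6.9e-21). The targets NRARP and HEY2 went with HES1, at 2.19-fold and 2.16-fold, the receptors NOTCH1 and NOTCH3 differed in direction (1.71-fold higher and 1.39-fold lower), and the coactivator MAML2 rose 4.37-fold. Hedgehog genes had 7 of 12 higher and 3 lower, with the target GLI1 at 2.61, 2.29 and 2.17 CPM in DE and 8.86, 8.79 and 9.86 CPM in ETO (3.87-fold), PTCH1 1.65-fold and the co-receptor CDON 1.88-fold higher. In retinoic acid metabolism CYP26A1, which degrades retinoic acid, was at 1507, 1579.6 and 1528 CPM in DE and at 444, 424 and 439 CPM in ETO, 3.53-fold lower (log2 fold change −1.82, SE 0.030, adjusted p = 2.2e-32). RDH10, of its synthesis, rose 1.82-fold, the receptor gene RARB fell 8.9-fold from 6.14 ± 0.283 CPM, and ALDH1A3 fell 1.71-fold.

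YAP and TEAD targets had 18 of 27 higher and 7 lower. CTGF was at 113, 118 and 119.8 CPM in DE and at 395, 369 and 389 CPM in ETO, 3.29-fold higher (log2 fold change 1.72, SE 0.036, adjusted p = 9.4e-30). VGLL3, a TEAD cofactor, was at 4.75, 6.17 and 4.71 CPM in DE and at 34.5, 34.9 and 33 CPM in ETO, 6.59-fold higher. AMOT, which holds YAP at junctions, was at 29.2, 28.5 and 25.2 CPM in DE and at 7.59, 7.48 and 6.22 CPM in ETO, 3.87-fold lower (log2 fold change −1.95, SE 0.086, adjusted p = 2.1e-20). The target CYR61 rose 2.11-fold and ANKRD1, another well-known target, fell 2.68-fold; FJX1 rose 2.88-fold with uneven DE libraries (1.99, 4.8 and 3.91 CPM), and YAP1 itself did not pass. Insulin and IGF genes had 20 of 33 higher and 6 lower. IRS1, the insulin receptor substrate, was at 15.4, 16.5 and 16.1 CPM in DE and at 58, 57.8 and 57.6 CPM in ETO, 3.62-fold higher (log2 fold change 1.86, SE 0.065, adjusted p = 2.9e-23). IRS4 and the binding protein gene IGFBP3 rose 5.62-fold and 4.52-fold, FOXO1 rose 2.15-fold and IGF2 fell 1.6-fold. Of the AMPK subunits, PRKAA2 rose 1.27-fold, PRKAB1 and PRKAB2 fell 1.16-fold and 1.17-fold, and PRKAA1 and PRKAG2 did not pass.

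Of 49 collagens and matrix enzymes, 22 rose, 14 of them at least 2-fold, and 22 fell. COL1A2 was at 131, 134 and 132 CPM in DE and at 343, 344 and 341 CPM in ETO, 2.59-fold higher (log2 fold change 1.37, SE 0.033, adjusted p = 6.7e-28), while COL1A1, its partner in type I collagen, was at 56.1, 53 and 53.3 CPM in DE and at 51.3, 47.2 and 50.3 CPM in ETO (log2 fold change −0.13, SE 0.051, adjusted p = 0.026), a call lost with upper-quartile scaling, DESeq2 and the correction for gene length and GC content, and without DE replicate 1 or ETO replicate 2. VCAN, the proteoglycan versican, was at 93.9, 90.9 and 95 CPM in DE and at 403, 412 and 410.5 CPM in ETO, 4.38-fold higher (log2 fold change 2.13, SE 0.037, adjusted p = 7.0e-32). The chains of type I collagen thus moved unequally. COL11A1 rose 5.88-fold and the matricellular genes THBS2 and THBS1 6.32-fold and 3.07-fold. Of the type IV collagen chains of basement membranes, COL4A1 fell 1.62-fold, COL4A2 1.45-fold and COL4A6 2.6-fold, and COL4A3 did not pass. Integrins and laminins were called 19 higher and 7 lower of 31. ITGA4 was at 17.2, 17.5 and 16.9 CPM in DE and at 3.95, 3.62 and 3.52 CPM in ETO, 4.63-fold lower (log2 fold change −2.21, SE 0.099, adjusted p = 3.3e-20). ITGA2, a collagen receptor, was at 2.14, 2.63 and 3.81 CPM in DE and at 16, 14.8 and 16.5 CPM in ETO, 5.54-fold higher (log2 fold change 2.47, SE 0.147, adjusted p = 9.9e-17), and ITGA1 rose 2.59-fold. Among 6 fibroblast markers, 3 had too few counts to test, DCN with 0 in all 6 libraries; the tested ones, COL1A1, COL1A2 and POSTN, summed to 186 to 187 CPM in DE and 392.3 to 395.7 CPM in ETO. Mesoderm markers summed to 153 to 161 CPM in DE and 400.4 to 407 CPM in ETO. Most of that sum came from KDR, with 6986 counts in DE and 20830 in ETO. Of the mesoderm markers, 5 of the 5 tested were called higher. Of these calls, that of TBX6 was lost with the replicate block, with no filter on low counts, with DESeq2 and without DE replicate 1, DE replicate 2, ETO replicate 2 or ETO replicate 3, and that of HAND1 with DESeq2 and without any 1 library other than DE replicate 3. The part of such cells in the matrix differences was not tested.

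Junction genes had 17 of 41 higher and 18 lower. CDH11, a mesenchymal cadherin, was at 5.27, 5.49 and 5.4 CPM in DE and at 29.2, 29.6 and 28 CPM in ETO, 5.38-fold higher (log2 fold change 2.43, SE 0.093, adjusted p = 4.2e-22). CTNNA2, an alpha-catenin of neurons, was at 13.8, 16.1 and 13.2 CPM in DE and at 4.04, 4.07 and 3.91 CPM in ETO, 3.56-fold lower. EPCAM, an epithelial adhesion molecule, fell 1.73-fold, JUP 1.63-fold and PKP2 1.79-fold, while the desmosomal cadherin DSC3 rose 4.73-fold. Cytoskeletal genes were called 21 higher and 19 lower of 44. The simple epithelial keratins KRT8, KRT18 and KRT19 fell 2.05-fold, 1.37-fold and 2.41-fold, and the intermediate filament genes VIM and NES rose 1.73-fold and 2.26-fold. FLNC, a filamin, was at 64.2, 66.7 and 69.1 CPM in DE and at 318, 311 and 309 CPM in ETO, 4.69-fold higher (log2 fold change 2.23, SE 0.040, adjusted p = 1.5e-31). ANXA1, an annexin, was at 14.4, 17.7 and 18.3 CPM in DE and at 98.4, 97.3 and 97.3 CPM in ETO, 5.84-fold higher (log2 fold change 2.55, SE 0.067, adjusted p = 6.1e-27). S100A14 was at 20.6, 21.5 and 19.9 CPM in DE and at 3.04, 4.42 and 3.36 CPM in ETO, 5.74-fold lower (log2 fold change −2.52, SE 0.113, adjusted p = 3.7e-20). All 3 separated the groups completely, and the smooth muscle actin gene ACTG2 rose 5.82-fold.

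Guidance genes were called 22 higher and 25 lower of 50. SLIT2 was at 21.4, 16.8 and 18.6 CPM in DE and at 77.3, 79.1 and 78.4 CPM in ETO, 4.12-fold higher (log2 fold change 2.04, SE 0.064, adjusted p = 1.1e-24), and its receptor ROBO1 rose 1.98-fold. The semaphorin receptor PLXNA4 was at 84.7, 77.6 and 75.4 CPM in DE and at 18.2, 22 and 21.4 CPM in ETO, 3.88-fold lower (log2 fold change −1.96, SE 0.060, adjusted p = 6.8e-25), PLXNC1 and EPHB1 rose 4.37-fold and 3.84-fold, and SEMA6A rose 3.83-fold. Cell-surface receptors and chemokines had 23 of 34 higher, 13 of them at least 2-fold, and 8 lower. ERBB4, a neuregulin receptor, was at 277, 259.6 and 273 CPM in DE and at 35, 37.8 and 33.3 CPM in ETO, 7.62-fold lower (log2 fold change −2.93, SE 0.043, adjusted p = 9.5e-34). KITLG was at 20.6, 18.5 and 21.1 CPM in DE and at 79.8, 86.2 and 80.4 CPM in ETO, 4.09-fold higher (log2 fold change 2.03, SE 0.063, adjusted p = 6.9e-25), and its receptor KIT fell 1.92-fold. Ligand and receptor differed in direction here, and also for CXCL12, which rose 4.05-fold, and its receptors CXCR4 and ACKR3, which fell 4.89-fold and 4.08-fold. FLT1, a VEGF receptor, was at 28.4, 28.9 and 29.3 CPM in DE and at 125, 127 and 121 CPM in ETO, 4.31-fold higher (log2 fold change 2.11, SE 0.049, adjusted p = 2.1e-28), and MET, PDGFA and EGFR rose 3.66-fold, 3.3-fold and 2.33-fold.

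Of 40 histone methylation and Polycomb genes 15 rose and 12 fell. JARID2, an accessory subunit of Polycomb complex 2, was at 104, 104 and 99.3 CPM in DE and at 229, 239.5 and 228 CPM in ETO, 2.27-fold higher (log2 fold change 1.18, SE 0.037, adjusted p = 7.8e-25). BMI1, of Polycomb complex 1, was at 14.8, 15.9 and 17.3 CPM in DE and at 6.9, 6.48 and 7.93 CPM in ETO, 2.26-fold lower (log2 fold change −1.17, SE 0.096, adjusted p = 5.7e-13), and CBX8 and the demethylase gene KDM6B fell 2.09-fold and 1.83-fold. Lysine acetylation genes had 11 of 36 higher and 16 lower. HDAC9 rose 6.05-fold, from 3.57 ± 0.22 to 21.6 ± 0.975 CPM, while HDAC5, a deacetylase of the same class, was at 236, 237 and 232 CPM in DE and at 145, 142 and 152 CPM in ETO, 1.6-fold lower, and HDAC6 and SIRT2 fell 1.48-fold and 1.48-fold. The acetyltransferase genes EP300 and CREBBP rose 1.22-fold and 1.11-fold. DNMT3B, a de novo DNA methyltransferase, was at 412, 385 and 376 CPM in DE and at 674, 667 and 677 CPM in ETO, 1.72-fold higher. Of 14 imprinted genes 8 fell and 2 rose. PEG10 was at 2089, 1936 and 1970.0 CPM in DE and at 736, 743 and 723 CPM in ETO, 2.72-fold lower (log2 fold change −1.45, SE 0.030, adjusted p = 7.8e-30), DLK1 was at 13.6, 12.3 and 12 CPM in DE and at 2.27, 1.96 and 2.37 CPM in ETO, 5.74-fold lower (log2 fold change −2.52, SE 0.125, adjusted p = 5.5e-19), and PHLDA2 rose 2.05-fold. PEG10 and DLK1 are expressed from the paternal copy and PHLDA2 from the maternal one.

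By gene family, 99 of 258 solute carriers rose and 81 fell. SLC16A12, a creatine carrier, was at 4.61, 4.4 and 6.51 CPM in DE and at 22.7, 25.1 and 25.7 CPM in ETO, 4.72-fold higher. SLC5A9, a sodium-coupled sugar carrier, was at 15.1, 14.1 and 16.6 CPM in DE and at 2.59, 3.57 and 3.85 CPM in ETO, 4.62-fold lower. SLC30A4, SLC9A5, SLC35F3 and SLC25A53 fell 4.62-fold, 3.99-fold, 3.06-fold and 2.97-fold. Developmental transcription factors of the homeobox, forkhead, SOX and related families were called higher in 48.4% and lower in 26.6% of 256 tested, with a median log2 fold change of 0.30. SOX21 and SOX10 fell 5.17-fold and 4.04-fold, the span of SOX10 overlapping that of POLR2F. OTX2, which is expressed in both anterior endoderm and neural tissue, was at 369, 374 and 358 CPM in DE and at 141, 142 and 139 CPM in ETO, 2.61-fold lower, and EVX1, of the posterior streak, was at 8.93, 10.1 and 11.3 CPM in DE and at 34.4, 32 and 33 CPM in ETO, 3.29-fold higher. PAX5 rose 6.25-fold, from 1.57 ± 0.158 to 9.93 ± 0.467 CPM. Of 471 zinc finger genes named ZNF, 112 rose and 146 fell. ZNF48 was at 162, 166 and 169.9 CPM in DE and at 71, 71.9 and 74.8 CPM in ETO, 2.29-fold lower, ZNF764, ZNF114 and ZNF296 fell 2.31-fold, 2.23-fold and 2.19-fold, and ZNF704, ZNF398, ZNF215 and ZNF589 rose 2.0-fold, 2.0-fold, 2.04-fold and 1.95-fold.

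Among genes with a mean of at least 5 CPM, CREB5, a transcription factor of the CREB family, rose most, at 2.71, 2.17 and 2.54 CPM in DE and 19.1, 17.2 and 18 CPM in ETO (7.27-fold). SPP1, osteopontin, was at 45, 46.3 and 54.2 CPM in DE and at 293, 297 and 288 CPM in ETO, 6.04-fold higher (log2 fold change 2.59, SE 0.049, adjusted p = 5.1e-31). Several of the 20 largest rises encode secreted or matrix proteins: COL12A1, COL11A1, THBS2, GREM1, SPP1 and OLFML3, the last at 10.1, 8.97 and 10.4 CPM in DE and 57.3, 58.4 and 57.6 CPM in ETO. ABCG2, an exporter of drugs and porphyrins, was at 4.8, 5.37 and 6.14 CPM in DE and at 32.7, 33.3 and 33 CPM in ETO, 6.09-fold higher. LCP1, an actin bundler of blood cells, was at 7.88, 8.34 and 8.41 CPM in DE and at 49.3, 50.8 and 53 CPM in ETO, 6.22-fold higher. Other large rises were GLIPR1 (6.39-fold), VAT1L (6.32-fold), ZDHHC22 (6.22-fold), AADACL3 (6.18-fold), MICAL2 (5.93-fold), SYT6 (5.88-fold) and TBXT (5.93-fold). For all 20 the 3 ETO libraries lay above the 3 DE libraries, as the rule that chose them required.

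Under the same limit of 5 CPM the largest fall was that of RNASE1, a secreted ribonuclease, at 11.4, 11 and 11.8 CPM in DE and 0.818, 0.301 and 1.05 CPM in ETO (15.8-fold, 43 counts over the 3 ETO libraries). TMOD1, which caps actin filaments, was at 65.8, 63.7 and 63.6 CPM in DE and at 7.04, 6.38 and 9.03 CPM in ETO, 8.66-fold lower (log2 fold change −3.11, SE 0.071, adjusted p = 8.3e-29); its span overlaps that of TSTD2. VWF, the endothelial clotting protein, was at 73.9, 68.1 and 72.2 CPM in DE and at 8.58, 8.49 and 9.31 CPM in ETO, 8.14-fold lower (log2 fold change −3.03, SE 0.062, adjusted p = 4.3e-30). CCL2, a chemokine, was at 59.3, 59.3 and 57.6 CPM in DE and at 7.72, 7.18 and 9.2 CPM in ETO, 7.34-fold lower, and CCKBR, a gastrin receptor, was at 261, 259.7 and 249 CPM in DE and at 38.5, 39 and 42.2 CPM in ETO, 6.44-fold lower. BST2, an interferon-inducible membrane protein, was at 135, 147 and 148 CPM in DE and at 21.8, 21.6 and 23.3 CPM in ETO, 6.46-fold lower. The NODAL antagonists LEFTY1 and LEFTY2, close paralogues whose reads may be shared, fell 5.95-fold and 8.27-fold. The rest were CNGA4 (7.26-fold), PLCXD3 (6.95-fold), CAPN12 (6.6-fold), ARHGEF15 (6.29-fold), EYA2 (6.16-fold), UPK1B (6.01-fold), KCNH8 (5.95-fold) and C2orf88 (5.92-fold), besides ACSM4, EHHADH, ERBB4 and SLC40A1.

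**Figure D5:**
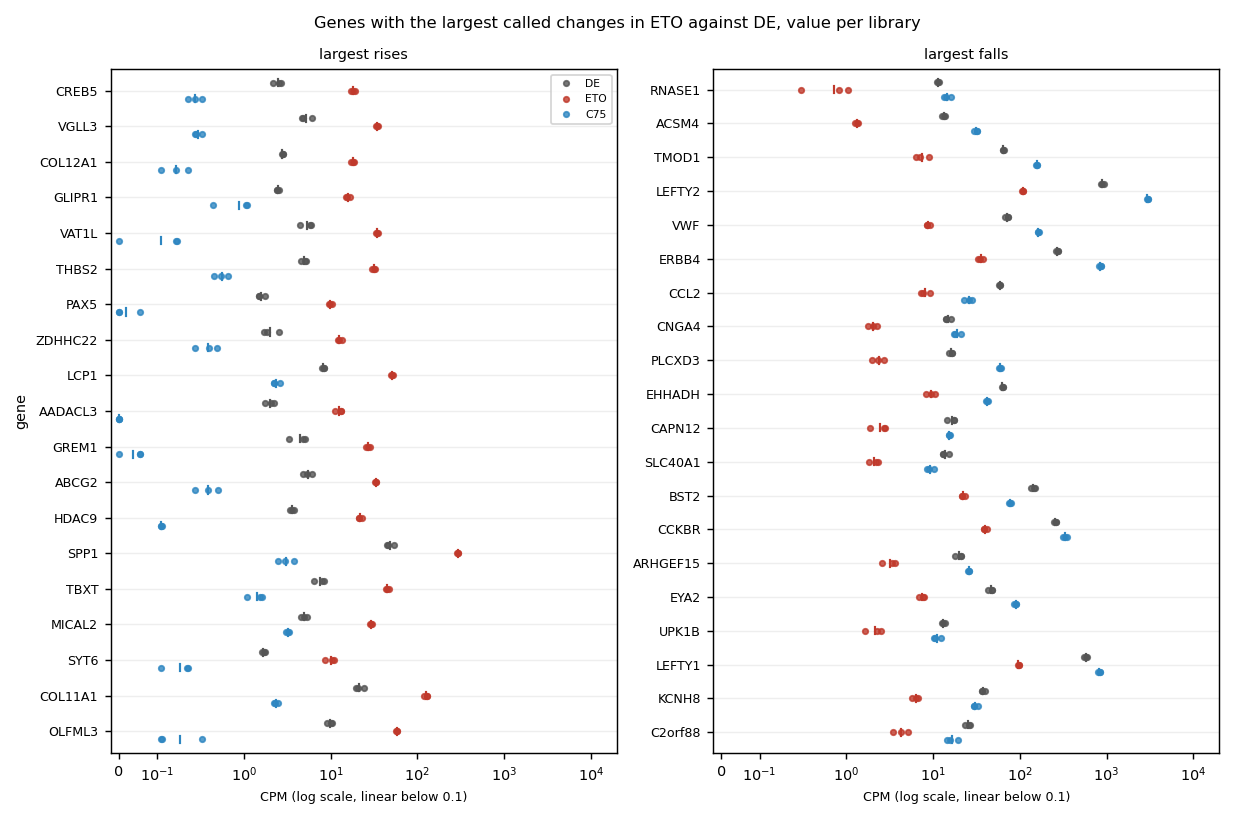
Points give the CPM of each library for the reported genes among the 20 largest called rises (left) and 20 largest called falls (right) in ETO against DE, on a log scale that is linear below 0.1; short vertical lines are group means, grey is DE, red ETO and blue C75. DE and ETO libraries do not overlap in any row, which the choice of genes required, and C75 lies below DE for each rise shown.

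By chromosome, chromosome 19, rich in short genes of high GC content, had 181 of 1046 genes higher (17.3%) and 511 lower (48.9%), with a median log2 fold change of −0.15, and chromosome 18 had 102 of 203 higher (50.2%) and 48 lower (23.6%), with a median of 0.18. The part of base composition in these medians was not tested.

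ETO was also tested against C75 directly, since both inhibitor groups share the DE libraries and their differences from DE are not independent. edgeR called 79.2% of genes between the inhibitors, 39.2% higher in ETO and 39.9% lower. Cytosolic ribosomal proteins had 66 of 79 higher and 4 lower in ETO than in C75, mitosis genes 45 of 47 higher, and DNA repair genes 18 of 21 higher and 1 lower. Proteasome genes had 1 of 38 higher and 36 lower, endoplasmic reticulum chaperones 2 of 22 higher and 16 lower and peroxisomal oxidation genes 3 of 20 higher and 12 lower. The amino acid genes also differed between the inhibitors. ASNS was at 25.4, 29.2 and 27.8 CPM in the C75 libraries, 8.13-fold below ETO (log2 fold change 3.02, SE 0.053, adjusted p = 1.6e-32), PHGDH at 64.9, 68.4 and 69.5 CPM (5.16-fold below) and SLC6A15 at 0.338, 0.77 and 0.494 CPM. The C75 libraries were below DE as well as ETO for these 3. GARS was at 153, 151 and 154 CPM in C75, 1.95-fold below ETO, and HARS at 87.8, 94.4 and 94.7 CPM, 1.87-fold above it. PDK1 was at 14.8, 11.7 and 14.1 CPM in C75, 8.52-fold below ETO (log2 fold change 3.09, SE 0.059, adjusted p = 1.7e-31). MT2A was at 1.58, 1.87 and 1.37 CPM, 12-fold below ETO. EHHADH was at 41.5, 43 and 40.3 CPM in C75, between the other groups and 4.41-fold above ETO, and ACOX3 was at 321, 329 and 337 CPM, 5.6-fold above it. PLIN2 was at 38, 41.7 and 35.6 CPM in C75 and did not pass the test between the inhibitors (log2 fold change 0.02, SE 0.066, adjusted p = 0.79), and PEG10, at 537, 534 and 530.4 CPM, was 1.38-fold below ETO.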

How the data were processed

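Bulk RNA-seq gene counts of 9 libraries (DE, ETO and C75, 3 each) were analysed from the count table the authors deposited; its values are whole, unnormalised counts per gene symbol. The submitters' processing notes name HISAT2 2.1.0, featureCounts 1.6.4 and GRCh38/hg38; whether counting used strand is not given in the sources used here. Counts were fitted with edgeR 4.0.16 in R 4.3.3 (TMM scaling, expression filter by group, quasi-likelihood test, 1 spread estimate from all 9 libraries), giving Benjamini-Hochberg adjusted p-values over 14177 genes, called below 0.05; every adjusted p in the text comes from that test. The common coefficient of variation was 0.0335. Values are CPM on TMM-scaled library sizes, and the script was tested on simulated counts. Genes were placed by symbol on a GENCODE annotation of GRCh38 and promoters taken from RefSeq; 85 of 323 named genes overlap another gene's span, 58 of them on the opposite strand, so reads may be shared.

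The comparison, gene lists and markers were chosen with earlier results of these data known. Named by rule were the carnitine palmitoyltransferases, the 20 largest rises and falls of at least 5 CPM without overlap of the groups, the 4 largest changes in each list and the largest against its majority, the 6 largest each way in each family, and cell type markers. Other list members were named after their values were seen. Some genes that the rule names are not reported here. Alternatives covered scaling, filters, DESeq2 1.42.0, a replicate block, left-out libraries, a fold threshold and a correction for gene length and GC content. Same-numbered DE and ETO libraries did not deviate together, with correlations of 0.01, −0.019 and −0.027.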

Additional observations from a re-analysis of the deposited data

How the results depend on the processing

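Every alternative was compared with 4916 genes higher and 4999 lower. Scaling, filters, DESeq2, fewer libraries and the correction for gene length and GC content gave 4712 to 5128 higher and 4516 to 5217 lower, with 48.8 to 52% of the called genes higher. Leaving out each library gave 4704 to 4850 higher and 4571 to 4865 lower. Tested against a log2 fold change of 0.5 in place of 0, a stricter question by construction, 1936 genes were higher and 1308 lower. Of the values of named genes under alternatives, 4492 kept their direction and side of the threshold, 26 lost the call, 2 gained it and 1 reversed: RPL35, at 0.029 after the correction for gene length and GC content. The calls lost were of COL1A1, TBX6, HAND1, NDUFA9, CLPP, FIS1 and RPS15, and MESP1 gained one; the cause was not tested. Of the list counts, 1479 stayed within 1.5 times and 33 did not, most of them counts of 5 or fewer. Beyond those given with the results, the correction changed the number called lower from 10 to 6 for Hedgehog and retinoic acid, 5 to 3 for nucleotide synthesis and 3 to 5 for ribosome biogenesis. Proteasome genes called higher went from 1 to 2 with the correction, both other scalings, the stricter filter, DESeq2 or no DE replicate 1. The stricter filter cut PPAR genes called higher from 3 to 1 and lipid droplet genes from 4 to 2. Replication genes called lower went from 3 to 5 with no filter, and tRNA synthetases from 1 to 2 without DE replicate 3. Low counts limit genes near or under 1 CPM, such as PDK4, CD36 and PSMB8.

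No pairing of the libraries by replicate number was seen, although 3 libraries per group could leave a weak pairing unseen. With the replicate block there were 4923 genes higher and 5008 lower, 1350 and 682 of them at least 2-fold, and 11230 differed between ETO and C75, so that the block moved no overall count by over 1.5 times.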
